A study of Macaca fascicularis with 2 samples.

Results

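The platelet-derived growth factor (PDGF) family was represented by 6 of the 18446 genes in the count table, the 4 ligands PDGFA, PDGFB, PDGFC and PDGFD and the 2 receptors PDGFRA and PDGFRB. They were chosen by symbol alone, and all 6 were found. The cells came from whole ovaries of the cynomolgus monkey, Macaca fascicularis, from 1 female fetus at embryonic day 84 (E84) and 1 at E116, with no treatment given in the labels. Both ovaries of a fetus were digested together and sequenced as 1 droplet library, so there was 1 library per stage and no replicate. Cells of both libraries share a single table, and the barcode endings 1 and 2 are not tied to a stage there, so levels are given over all cells and, side by side, for each ending, and no stage difference is given.

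PDGFs are secreted dimers that activate 2 receptor tyrosine kinases, PDGFRA and PDGFRB. PDGF-A and PDGF-B are secreted in active form, whereas PDGF-C and PDGF-D need a protease to release their growth factor domain. PDGF-A and PDGF-C act mainly through PDGFRA, PDGF-D mainly through PDGFRB and PDGF-B through both. The textbook case is the growing vessel, where endothelial cells release PDGF-B and pericytes, which carry PDGFRB, are recruited along it. PDGFRA is a usual marker of mesenchymal progenitors and fibroblasts, in the gonads included.

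Cells with 200 to 3000 detected genes were retained, which left 16292 of 20967 cells and 53250481 UMIs (unique molecular identifiers, each standing for 1 captured RNA molecule), with a median of 2470 UMIs per cell for barcodes ending in 1 and 2964 for those ending in 2. Clusters were named from marker genes. They gave 343 endothelial-like, 116 pericyte-like, 4012 stroma-like, 5203 granulosa-like and 4481 germ cell-like cells, and the smaller classes of 760 ovarian surface epithelium-like, 228 macrophage-like and 737 erythroid-like cells. The endothelial-like cluster passed 10 endothelial markers and the pericyte-like cluster all 13 pericyte markers in the table, smooth muscle genes such as MYH11, ACTA2 and CNN1 among them, so that it may hold vascular smooth muscle as well. Only 10 of its 116 cells had barcodes ending in 1. Of the granulosa-like cells, 1087 formed a shallow cluster with a median of 679 UMIs, which passed 3 granulosa markers. Its summed germ cell markers, at 818.1 CPM, were above its granulosa markers, at 755.8 CPM, so its name is less sure. The macrophage-like cluster also passed 11 lymphocyte markers, and 412 cells with a median of 80.05% mitochondrial UMIs were left unnamed. Among the barcodes, 27 occurred with both endings, and 12 of these pairs were retained.

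Levels are summed UMIs of a gene per 1000000 UMIs of the class (CPM) with exact 95% Poisson intervals, and ratios have exact 95% intervals. These cover counting error only, not the spread between animals, and no test between groups was possible. A share of cells with a UMI depends on depth, so it is also given after each cell with at least 1000 UMIs was thinned to 1000 UMIs. Shallower cells were left out of the thinned shares, 3024 of 16292 in all. Among them were 909 of 5203 granulosa-like and 1596 of 4481 germ cell-like cells. In erythroid-like cells the 8 erythroid markers in the table alone held 474500 CPM. This lowers the CPM and the shares of all other genes there. Levels, limits and shares given for these cells below are not corrected for it.

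PDGFB was highest in endothelial-like cells and PDGFRB in pericyte-like cells, whereas PDGFRA was high in stroma-like cells, with no other named class above 4.78 CPM. PDGFC and PDGFD were scarce and were found mostly in granulosa-like cells, but in different clusters of them. PDGFA was the rarest member. In the retained cells its pooled level was highest in ovarian surface epithelium-like cells, but was not separated from that of pericyte-like cells, which rests on 2 UMIs.

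**Figure D1:**
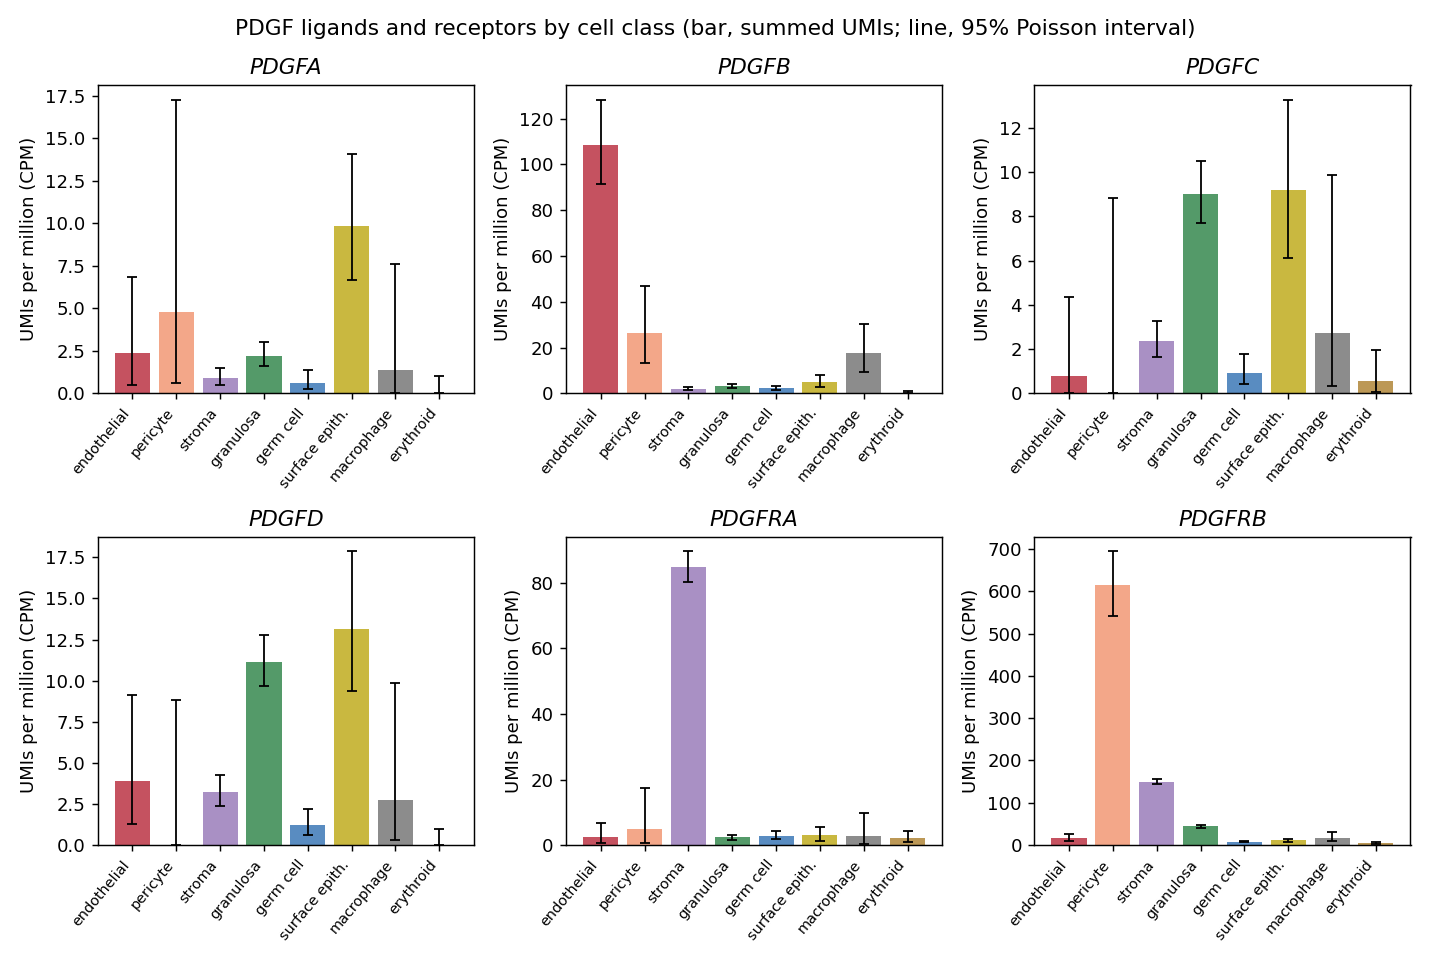
Level of each PDGF gene (y axis, CPM from summed UMIs, each panel with its own scale from 0) in 8 marker-named cell classes (x axis). Bars are the pooled level and lines the exact 95% Poisson interval. PDGFB reached 108.6 CPM in endothelial-like cells, PDGFRA 84.8 CPM in stroma-like cells and PDGFRB 614.5 CPM in pericyte-like cells.

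PDGFA encodes the A chain. Its 98 UMIs in the retained cells were too few for the lower limit of 100 UMIs that was set for comparisons across all genes. The level was 4.78 CPM (95% interval 0.579 to 17.3) in pericyte-like cells, 2.35 CPM (0.484 to 6.85) in endothelial-like cells, 2.21 CPM (1.59 to 3.003) in granulosa-like cells, 0.874 CPM (0.465 to 1.49) in stroma-like cells and 0.622 CPM (0.228 to 1.35) in germ cell-like cells. The first of these rests on 2 UMIs and the second on 3, and neither differed from the next class beyond counting error. Granulosa-like cells exceeded stroma-like cells 2.53-fold (1.33 to 5.15), and stroma-like and germ cell-like cells did not differ beyond counting error.

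Among the retained cells, the surface epithelium-like cells, which cover the ovary, had the highest pooled level, 9.84 CPM (6.64 to 14.1) from 30 PDGFA UMIs. That was 4.45-fold (2.68 to 7.30) the granulosa-like level. They held 30.6% of all PDGFA UMIs with 5.73% of all UMIs. By barcode ending it was 9.81 CPM (ending 1) and 9.88 CPM (ending 2), with a ratio of 0.994 (0.455 to 2.22). No PDGFA UMI was found among the 737 erythroid-like cells, which allows a level of up to 0.813 CPM.

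PDGFB encodes the B chain, the ligand of both receptors. Its level was 108.6 CPM (91.3 to 128.3) in endothelial-like cells, 26.3 CPM (13.1 to 47.1) in pericyte-like cells, 3.13 CPM (2.38 to 4.05) in granulosa-like cells, 2.18 CPM (1.35 to 3.33) in germ cell-like cells and 2.08 CPM (1.42 to 2.96) in stroma-like cells. Endothelial-like cells were 4.13-fold (2.24 to 8.47) above pericyte-like cells, and these 8.40-fold (3.98 to 16.2) above granulosa-like cells. The remaining 3 classes did not differ from their neighbours beyond counting error.

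Endothelial-like cells held 48.1% of all PDGFB UMIs with 2.40% of all UMIs. At least 1 PDGFB UMI was found in 25.95% of them (21.4 to 30.9), with a median depth of 3518 UMIs, against 0 of 737 erythroid-like cells with a median of 4056 UMIs, which allows a level of up to 0.813 CPM. At 1000 UMIs per cell the endothelial-like share was 10.0%. By barcode ending the level was 81.8 CPM (ending 1) and 120.4 CPM (ending 2), and the interval of their ratio included 1.

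The lower PDGFB level in pericyte-like cells rested on 11 UMIs, all in barcodes ending in 2. It was 26.9 CPM (9.86 to 58.5) in the 74 pericyte-like cells without a UMI of any endothelial marker, and 6 of the 11 endothelial markers in the table, CDH5 and EMCN among them, were at 0 in the class. Macrophage-like cells had 17.8 CPM (9.46 to 30.4) from 13 UMIs, but 2.33 CPM (0.0589 to 12.96) from 1 UMI in the 166 cells without an endothelial marker UMI.

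Among germ cell-like cells, PDGFB stood out in the 81 mitotic cells, which carry markers of primordial germ cells. They had 20.0 CPM (10.0 to 35.8) from 11 UMIs, against 1.10 CPM (0.527 to 2.02) from 10 UMIs in the 4400 other germ cell-like cells, an 18.2-fold difference (7.02 to 47.9). All mitotic cells had barcodes ending in 1. The level was 1.45 CPM in cells responsive to retinoic acid, 0.508 CPM in meiotic cells and 1.74 CPM in cells at oogenesis. In the 33 mitotic cells without an endothelial marker UMI it was 32.8 CPM (12.03 to 71.4). Cells over 3000 genes are not in these values. When all cells were clustered together, the 287 mitotic germ cell-like cells over that limit had 18.4 CPM (15.1 to 22.3) from 108 UMIs, while the retinoic acid-responsive, meiotic and oogenesis cells had 1.41, 0.467 and 0.478 CPM. Endothelial-like cells were still 5.43-fold (2.94 to 11.1) above the mitotic germ cell-like cells.

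PDGFC encodes a ligand with a CUB domain that must be cut off, and it acts mainly through PDGFRA. Its level was 9.02 CPM (7.70 to 10.5) in granulosa-like cells, 2.35 CPM (1.64 to 3.27) in stroma-like cells, 0.933 CPM (0.427 to 1.77) in germ cell-like cells and 0.782 CPM from 1 UMI in endothelial-like cells. It was not detected in 116 pericyte-like cells, which allows a level of up to 7.17 CPM. Granulosa-like cells were 3.83-fold (2.65 to 5.69) above stroma-like cells, and these 2.52-fold (1.19 to 5.97) above germ cell-like cells. Surface epithelium-like cells, at 9.18 CPM, did not differ from granulosa-like cells beyond counting error, with a ratio of 1.02 (0.657 to 1.53).

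PDGFD encodes the other CUB domain ligand, which acts mainly through PDGFRB. Its level was 11.1 CPM (9.65 to 12.8) in granulosa-like cells, 3.91 CPM (1.27 to 9.12) from 5 UMIs in endothelial-like cells, 3.23 CPM (2.38 to 4.28) in stroma-like cells and 1.24 CPM (0.643 to 2.17) in germ cell-like cells. It was not detected in pericyte-like cells, where the limit is again 7.17 CPM. Granulosa-like cells were 2.85-fold (1.20 to 8.86) above endothelial-like cells, which did not differ from stroma-like cells beyond counting error. The surface epithelium-like level was 13.1 CPM, 1.18 times (0.819 to 1.66) the granulosa-like level.

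The granulosa-like clusters divided these 2 ligands between them. PDGFD was 18.8 CPM (15.9 to 22.0) in the cluster led by SOST and 1.84 CPM in the cluster led by LYPD1, a 10.2-fold difference (5.55 to 20.9). PDGFC ran the other way, with 3.54 CPM in the SOST cluster and 15.5 CPM (12.5 to 19.0) in the LYPD1 cluster, a 4.39-fold difference (2.87 to 6.92). The cluster led by genes such as INHBB, a subunit of activin and inhibin, was like the LYPD1 cluster, with 14.1 CPM of PDGFC and 3.64 CPM of PDGFD.

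These clusters followed the barcode ending. Of the 1782 cells of the SOST cluster, 1757 had barcodes ending in 1, whereas all 1084 cells of the LYPD1 cluster and 958 of the 961 cells of the INHBB cluster had barcodes ending in 2. Cluster, library, animal and stage cannot be told apart here. Median mitochondrial shares were 10.8% in the SOST cluster, 16.1% in the LYPD1 cluster and 48.8% in the INHBB cluster. The cluster with AMH and CYP19A1, genes of differentiating granulosa cells, held both endings, with 93 and 196 cells. PDGFD was 36.2 CPM (16.5 to 68.6) in its cells ending in 1 and 7.80 CPM (3.57 to 14.8) in those ending in 2, from 9 UMIs each, and PDGFC was 8.04 CPM (0.973 to 29.0) and 11.3 CPM (5.998 to 19.3).

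**Figure D2:**
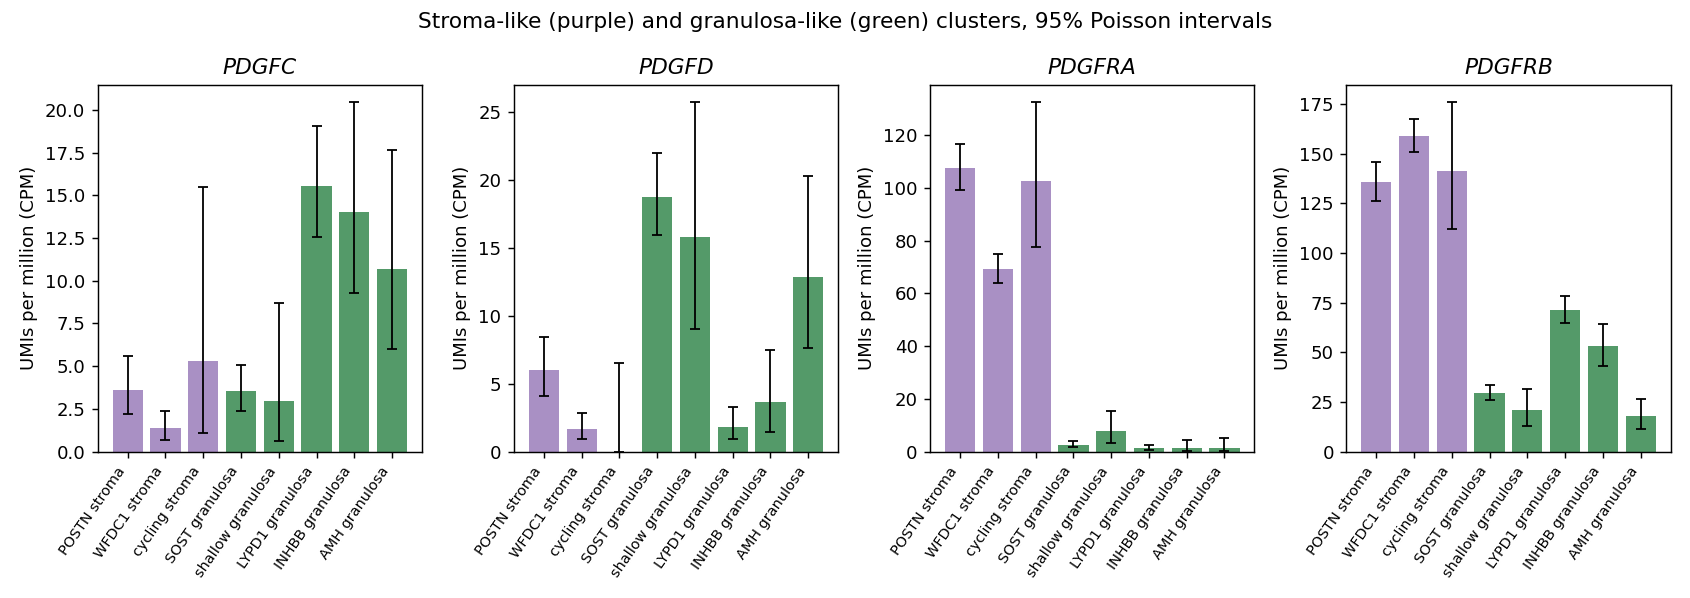
PDGFC, PDGFD, PDGFRA and PDGFRB (y axis, CPM, each panel with its own scale from 0) in 3 stroma-like and 5 granulosa-like clusters (x axis), with exact 95% Poisson intervals as lines. PDGFD was highest in the SOST cluster at 18.8 CPM, PDGFC in the LYPD1 cluster at 15.5 CPM, PDGFRA in the POSTN cluster at 107.8 CPM and PDGFRB in the WFDC1 cluster at 158.9 CPM.

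Across all granulosa-like cells, PDGFC was 3.43 CPM for ending 1 and 14.7 CPM for ending 2, and PDGFD 19.1 and 3.05 CPM. The order of classes changed with the ending. In barcodes ending in 1, PDGFC in granulosa-like cells (3.43 CPM) did not exceed that in stroma-like cells (3.66 CPM), and in barcodes ending in 2, PDGFD in granulosa-like cells did not exceed the 3.38 CPM of endothelial-like cells. Without the cells over 10% mitochondrial UMIs, a share that the medians of the SOST, LYPD1 and INHBB clusters all exceed, granulosa-like cells had 3.18 CPM of PDGFC from 10 UMIs, against 2.33 CPM in stroma-like cells.

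PDGFD was lower in barcodes ending in 2 in each of the 3 classes with enough UMIs. Cells ending in 1 exceeded those ending in 2 by 6.27-fold (4.19 to 9.70) in granulosa-like cells, 3.51-fold in stroma-like cells (5.75 against 1.64 CPM) and 9.37-fold in surface epithelium-like cells (2.97 to 47.5; 21.4 against 2.28 CPM, the latter from 3 UMIs). The interval excluded 1 in each. PDGFC did not follow this pattern, being 0.234 times as high (0.154 to 0.346) in granulosa-like cells but 2.39-fold higher in stroma-like cells. PDGFRB in the surface epithelium-like cells had a ratio of 1.03 (0.490 to 2.22). It was lower in granulosa-like cells ending in 1, with a ratio of 0.477 (0.410 to 0.553).

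**Figure D3:**
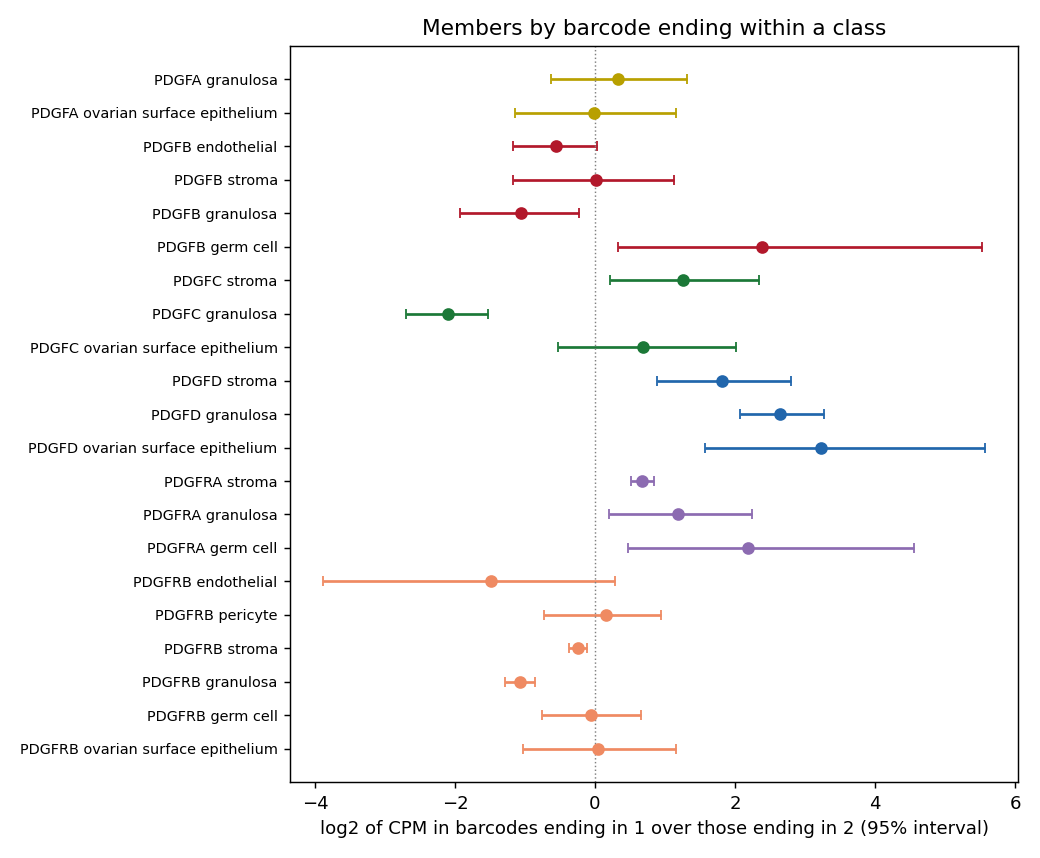
Level in barcodes ending in 1 over that in barcodes ending in 2, as log2 of the CPM ratio (x axis) with exact 95% intervals, for each member and class with at least 20 UMIs in all and some in both endings (y axis, colored by gene). PDGFD lay above 0 in all 3 classes shown, and PDGFC lay below 0 in granulosa-like and above 0 in stroma-like cells.

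PDGFRA encodes the alpha receptor. Its level was 84.8 CPM (80.2 to 89.6) in stroma-like cells, 4.78 CPM (0.579 to 17.3) in pericyte-like cells, 2.90 CPM (1.93 to 4.19) in germ cell-like cells, 2.35 CPM (0.484 to 6.85) in endothelial-like cells and 2.32 CPM (1.68 to 3.13) in granulosa-like cells. Stroma-like cells were 17.7-fold (4.90 to 147) above pericyte-like cells, whose value rested on 2 UMIs of 1 cell, and 36.5-fold (27.0 to 50.7) above granulosa-like cells. None of the other neighbours in this order differed beyond counting error. The granulosa-like level was 1.07 times (0.497 to 2.64) that of erythroid-like cells, which should lack the gene, without correction for their erythroid RNA.

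Stroma-like cells held 92.9% of all PDGFRA UMIs. A PDGFRA UMI was found in 24.5% of them (23.2 to 25.8), with a median depth of 3279.5 UMIs, against 1.09% of erythroid-like cells. At 1000 UMIs per cell these shares were 8.43% and 0.0%. The cluster led by POSTN, a matrix protein of fibroblasts, had 107.8 CPM and the cluster led by genes such as WFDC1 had 69.4 CPM, a 1.55-fold difference (1.39 to 1.74). The former held mostly barcodes ending in 1, with 1720 of 1753 cells, and the latter 6 of 2149. Cycling stroma-like cells, present with both endings, had 141.5 CPM in 68 cells ending in 1 and 59.5 CPM in 42 cells ending in 2.

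PDGFRB encodes the beta receptor and was the most widely detected member. Its level was 614.5 CPM (541.7 to 694.4) in pericyte-like cells, 149.7 CPM (143.5 to 156.0) in stroma-like cells, 44.2 CPM (41.2 to 47.4) in granulosa-like cells, 17.2 CPM (10.8 to 26.0) in endothelial-like cells and 7.98 CPM (6.30 to 9.97) in germ cell-like cells. Each class differed from the next beyond counting error, by 4.11-fold (3.59 to 4.67), 3.39-fold (3.12 to 3.67), 2.57-fold (1.69 to 4.13) and 2.15-fold (1.28 to 3.50). In pericyte-like cells it was 684.5 CPM in 10 cells ending in 1 and 610.9 CPM in 106 ending in 2, with a ratio of 1.12 (0.604 to 1.92).

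A PDGFRB UMI was found in 70.7% of pericyte-like cells (61.5 to 78.8; median depth 3162.5 UMIs), 36.1% of stroma-like and 12.5% of granulosa-like cells, against 1.63% of erythroid-like cells. At 1000 UMIs per cell these shares were 45.5%, 14.5%, 4.05% and 0.466%. The granulosa-like level was 11.7-fold (6.90 to 21.4) that of erythroid-like cells, a ratio raised by the erythroid RNA of the latter. In endothelial-like cells the level was 3.15 CPM (0.382 to 11.4) in the 199 cells without a UMI of any pericyte marker, beside 3.80 CPM in erythroid-like cells.

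Within the granulosa-like class, PDGFRB was 71.5 CPM (64.9 to 78.6) in the LYPD1 cluster, 53.1 CPM in the INHBB cluster, 29.6 CPM in the SOST cluster and 17.8 CPM in the AMH cluster. The LYPD1 cluster was 2.41-fold (2.06 to 2.84) above the SOST cluster. Markers of stroma and pericytes were also present in granulosa-like cells, with all 13 markers of each list above 0 and summed levels of 11.5% of the stroma-like and 12.2% of the pericyte-like level. In the LYPD1 cluster, the 55 cells without a UMI of a pericyte marker had 25.5 CPM of PDGFRB from 5 UMIs, and in the SOST cluster 213 such cells had 25.0 CPM from 20 UMIs. In the INHBB cluster 426 such cells had 56.9 CPM (41.2 to 76.6) from 43 UMIs, no lower than the whole cluster. When cells with a UMI of a stroma marker were left out instead, the INHBB cluster kept 159 cells. These had 14.7 CPM (4.00 to 37.6) from 4 UMIs, below the whole cluster. The LYPD1 cluster kept 11 cells, with 57.3 CPM (6.94 to 207) from 2 UMIs, and the SOST cluster kept none. The part of stromal or pericyte RNA in the granulosa-like PDGFRB level was not tested.

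The balance of the 2 receptors differed between classes. For each PDGFRA UMI there were 1.76 PDGFRB UMIs (1.65 to 1.89) in stroma-like cells and 1.75 (0.685 to 4.81) in erythroid-like cells, but 19.0 (14.0 to 26.5) in granulosa-like cells and 53.5 (26.9 to 125) in the LYPD1 cluster. The shallow granulosa-like cluster had 2.62 (1.12 to 6.85). Pericyte-like cells had 128 (35.2 to 1070), which rests on 2 PDGFRA UMIs. These are UMI ratios compared between classes and are not corrected for differences in capture between the 2 genes. In stroma-like cells the ratio was 2.29 (2.08 to 2.52) in the WFDC1 cluster and 1.26 (1.13 to 1.41) in the POSTN cluster.

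**Figure D4:**
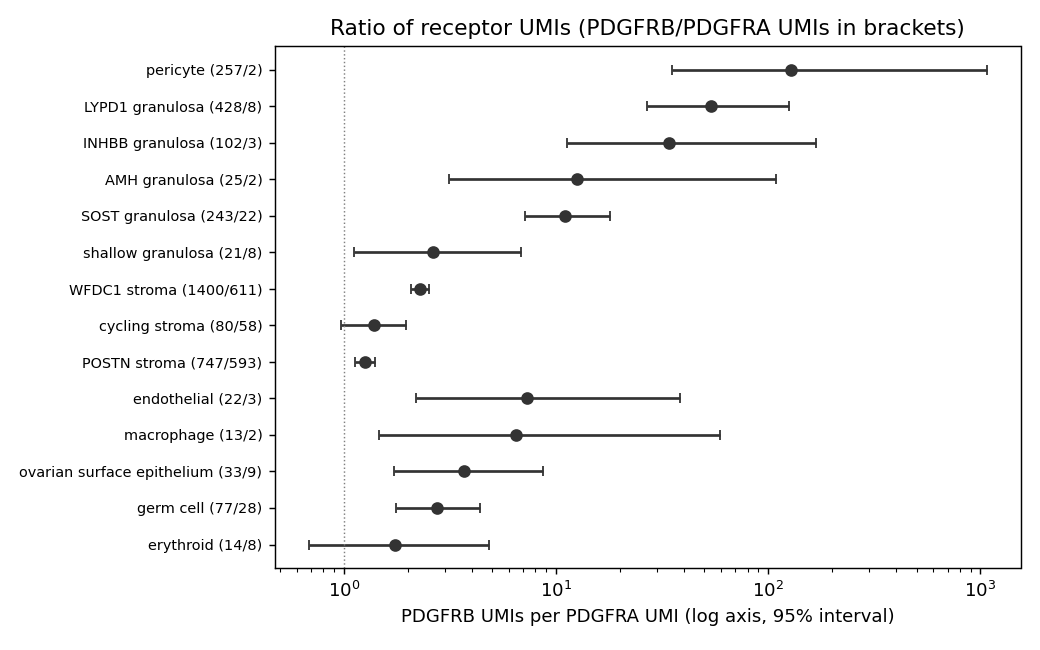
PDGFRB UMIs per PDGFRA UMI (x axis, log scale) with exact 95% intervals in each class or cluster (y axis, with the UMIs of both genes in brackets). The stroma-like clusters lie between 1.26 and 2.29, the erythroid-like cells at 1.75, and the LYPD1 granulosa-like cluster at 53.5.

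The share of stroma-like cells with a PDGFRB UMI did not differ beyond counting error between those with and without PDGFRA. At 1000 UMIs per cell, PDGFRB was found in 13.6% (9.99 to 17.8) of those with PDGFRA and in 14.6% (13.5 to 15.8) of those without. Unthinned, 362 of 4012 stroma-like cells had UMIs of both receptors and 1944 of neither.

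In the fold of each class over all other retained cells, with 10 CPM added, 12189 genes had at least 100 UMIs. Such a fold of at least 2 was reached by 6.24% of them in endothelial-like cells, where 1 of the 5 members tested, PDGFB, was among them. It was reached by 4.20% of genes in pericyte-like cells, with PDGFB and PDGFRB among them, and by 4.36% in stroma-like cells, with PDGFRA and PDGFRB. None of the 5 members reached it in granulosa-like cells, where 3.81% of genes did, or in germ cell-like cells, where 12.0% did. PDGFRB ranked 26 of 12189 in pericyte-like cells, PDGFRA 36 in stroma-like cells and PDGFB 70 in endothelial-like cells. PDGFC and PDGFD reached 1.55-fold and 1.61-fold in granulosa-like cells.

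Genes that process or bind the ligands were spread over the classes. PLAT, the tissue plasminogen activator, which can release the active domain of PDGF-C, was highest of the 5 classes in granulosa-like cells at 134.6 CPM. Surface epithelium-like cells, outside these 5, had 140.4 CPM (127.4 to 154.3) of PLAT. PLAU, the urokinase that cleaves PDGF-D, was highest in endothelial-like cells at 45.3 CPM, and it was 2.70 CPM in granulosa-like cells. SPARC, a matrix protein that binds PDGF-B, and A2M, a plasma protease inhibitor that carries it, were highest in pericyte-like cells at 3073 and 382.6 CPM. Of the co-receptors, NRP1 was highest in endothelial-like cells at 250.9 CPM, and LRP1 was 227.6 CPM in stroma-like and 212.4 CPM in granulosa-like cells. The order of the latter turned with the ending, with 274.5 CPM in stroma-like and 135.5 CPM in granulosa-like cells for ending 1 and 198.2 and 290.5 CPM for ending 2.

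The 13 signal transducers below the receptors were broadly detected. In endothelial-like cells 3 of them, the adaptor SHC1, the exchange factor SOS1 and the kinase FYN, were at least 2-fold above all other cells, with SHC1 at 405.6 CPM. PIK3R1, the regulatory subunit of PI3 kinase, was the 1 called in stroma-like cells, at 162.0 CPM, but macrophage-like cells had 425.2 CPM. RASA1, a GTPase activator, was the 1 called in germ cell-like cells, at 87.9 CPM. These single calls are near the 4.36% of all genes in stroma-like cells and below the 12.0% in germ cell-like cells. None was called in pericyte-like or granulosa-like cells. The median fold of the list was 1.47 in endothelial-like cells and 1.11 in pericyte-like cells, beside 0.954 and 0.920 over all genes tested. Of 4 negative regulators tested, CBL, a ubiquitin ligase that turns receptors over, was the 1 called, in germ cell-like cells at 31.8 CPM, where 12.0% of all genes were called.

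The receptors most closely related to the PDGF receptors lay elsewhere. The VEGF receptors FLT1 and KDR were 257.1 and 276.7 CPM in endothelial-like cells, against 7.17 and 0.0 CPM in pericyte-like cells. KIT, the receptor of KIT ligand, was 53.9 CPM in endothelial-like cells and 60.3 CPM in germ cell-like cells. CSF1R was 42.6 CPM in germ cell-like cells, the highest of the 5 classes, but this came from barcodes ending in 2 (117.5 CPM). For ending 1 it was 1.60 CPM, beside 1.61 CPM in granulosa-like cells. Macrophage-like cells, where CSF1R is a usual marker, had 311.7 CPM. Of the related ligands, VEGFA was highest in granulosa-like cells at 122.2 CPM, with 173.1 CPM for ending 1 but 70.6 CPM for ending 2, where pericyte-like cells had 83.0 CPM. PGF was highest in pericyte-like cells at 112.4 CPM, all of it in barcodes ending in 2.

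Other signals between endothelium and mural cells ran beside PDGFB and PDGFRB. Of 11 such genes tested, 9 were called in endothelial-like cells and 4 in pericyte-like cells, with median folds of 3.56 and 1.81. Over all genes tested, 6.24% and 4.20% were called, with median folds of 0.954 and 0.920. Of the same 11 genes, 3 were called in stroma-like, 1 in granulosa-like and 0 in germ cell-like cells. TEK and its relative TIE1, both receptors, were 131.3 and 229.0 CPM in endothelial-like cells and 2.39 and 0.0 CPM in pericyte-like cells. ANGPT1, which encodes the ligand of TEK, was 193.7 CPM in pericyte-like cells, against 3.13 CPM in endothelial-like cells. EDN1, endothelin, was 256.3 CPM in endothelial-like cells, and its receptor EDNRA was 294.4 CPM in stroma-like and 169.8 CPM in pericyte-like cells. JAG1, a NOTCH ligand, was higher in pericyte-like cells at 303.7 CPM than in endothelial-like cells at 147.7 CPM.

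Endothelial-like cells with a PDGFB UMI were compared with those without, for other genes than PDGFB. The 89 positive cells were deeper, with a median of 4442 UMIs against 3127 in the 254 negative cells. Of 7093 genes with at least 20 UMIs in these cells, 6.81% were at least 1.5-fold higher (with 10 CPM added) and 6.27% at least 1.5-fold lower in the positive cells. In a list of 7 genes of tip cells, the leading cells of sprouts, 3 were higher and 1 lower. ESM1 was 224.7 against 70.5 CPM, a 3.18-fold difference (2.28 to 4.48), and it was higher in both endings, at 156.8 against 16.6 and 244.1 against 98.8 CPM. UNC5B, a netrin receptor, was 1.87-fold (1.24 to 2.82) and ADM, adrenomedullin, 1.58-fold (1.16 to 2.14) higher, while ANGPT2 had a ratio of 0.494 (0.211 to 1.03), an interval that includes 1. The endings differed here. UNC5B was 179.2 against 39.8 CPM for ending 1 but 99.6 against 74.5 CPM for ending 2, and ADM 134.4 against 36.5 and 208.8 against 166.3 CPM. Of the 7 genes, 5 were at least 1.5-fold higher for ending 1, with 24 positive cells, and ESM1 alone for ending 2, with 65.

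Of the 3 arterial genes tested, EFNB2, the arterial ephrin, was called and was 1.89-fold (1.53 to 2.35) higher in PDGFB-positive cells. EFNB2 was called in both endings, with folds of 1.68 and 1.85 (10 CPM added). The transcription factor SOX17 was 1.47-fold (1.13 to 1.92) higher. Of the 4 venous genes, NRP2 was called lower, at 197.2 against 431.2 CPM, a ratio of 0.457 (0.354 to 0.584), and the ratio for NR2F2, a venous transcription factor, was 0.739 (0.599 to 0.908). EPHB4, the receptor of EFNB2, had a ratio of 1.07 (0.744 to 1.51). The lower level of NRP2 was seen in barcodes ending in 2 (151.0 against 438.3 CPM) more than in those ending in 1 (358.4 against 417.6 CPM), and NR2F2 was not lower in the latter (537.6 against 493.9 CPM).

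Of the 10 mural signals tested in the same cells, none was called higher, and ANGPT2, TGFB1 and JAG1 were called lower. HBEGF and ENG stayed below the 1.5-fold limit, at 1.48-fold and 1.44-fold with 10 CPM added. The intervals of their ratios nevertheless lay above 1, at 1.19 to 1.88 for HBEGF and 1.21 to 1.75 for ENG. For endings 1 and 2, with 10 CPM added, HBEGF was 1.47 and 1.39 times as high, and ENG 0.927 and 1.55 times. The interval for ANGPT2 included 1. JAG1 had a ratio of 0.570 (0.390 to 0.816). With 10 CPM added, TGFB1 was 0.453 and 0.615 times as high for endings 1 and 2, whereas ANGPT2 (0.826 and 0.523) and JAG1 (0.732 and 0.537) passed the limit for ending 2 alone. Of 5 pericyte markers tested, RGS5 was called higher, with a ratio of 2.19 (1.63 to 2.96), and ACTA2 lower, with a ratio of 0.566 (0.225 to 1.26) that did not differ from 1 beyond counting error. The higher RGS5 level was seen in barcodes ending in 2 alone, at 298.7 against 140.3 CPM, and in the 24 positive cells ending in 1 it was 0.0 CPM. PDGFRB was also called higher, with 30.0 against 11.4 CPM from 12 and 10 UMIs, none of the 12 in barcodes ending in 1. Pericyte markers under the limit of 20 UMIs were not called. Of these, KCNJ8 had a ratio of 6.14 (2.09 to 21.8) from 14 and 5 UMIs. HIGD1B had 6.58 (1.64 to 37.8) from 9 and 3 UMIs, and NDUFA4L2 7.68 (1.46 to 75.8) from 7 and 2. MYH11 (1 and 7 UMIs), ABCC9 (0 and 3) and RERGL (0 and 1) were lower, CNN1 (2 and 4) and DES (3 and 0) higher, none beyond counting error. The part of pericyte RNA in these differences was not tested. PDGFB itself was 110.3 CPM (86.0 to 139.4) in the 199 endothelial-like cells without a pericyte marker UMI, as high as in the whole class.

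**Figure D5:**
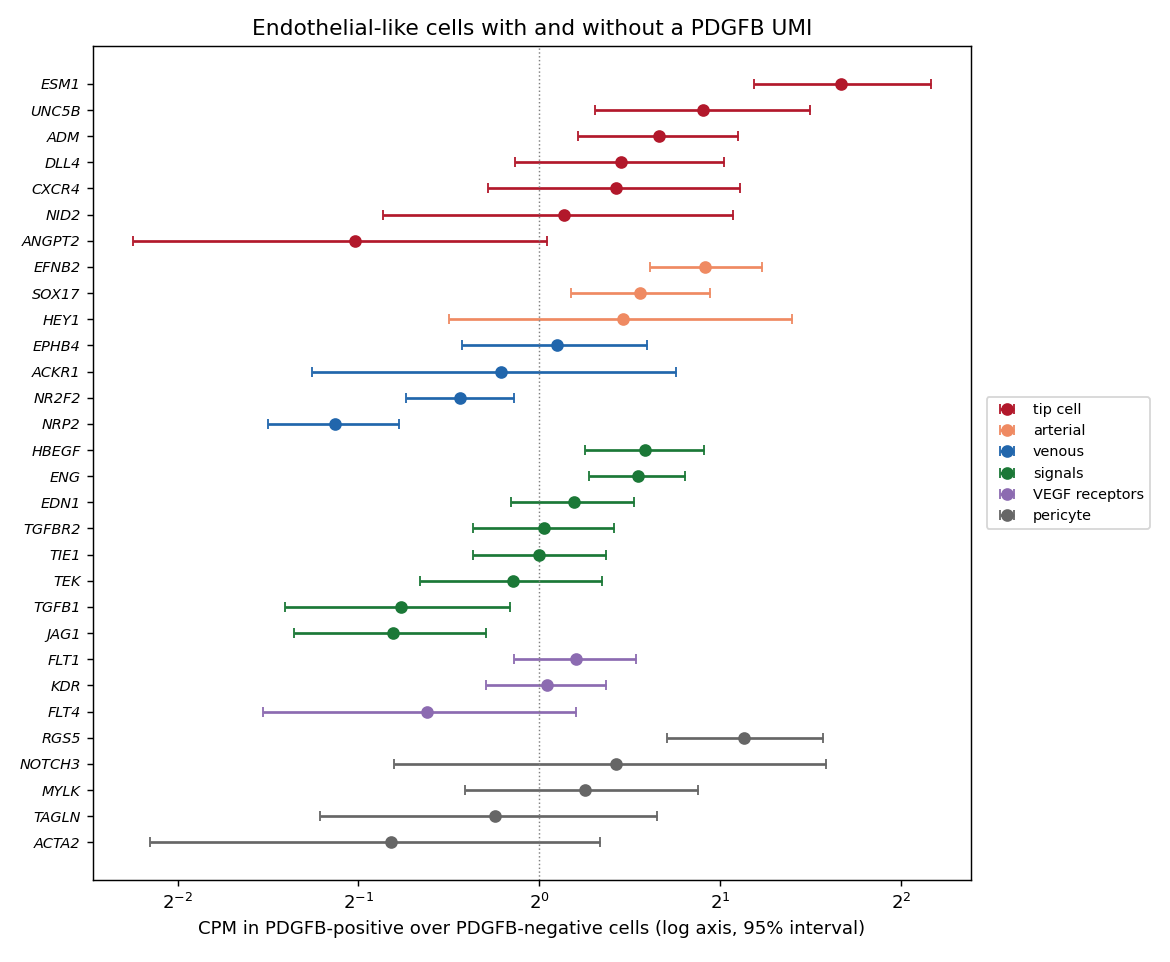
Ratio of CPM in 89 endothelial-like cells with a PDGFB UMI over that in 254 without (x axis, log scale of base 2) with exact 95% intervals, for most listed genes with at least 20 UMIs (y axis, colored by list). ESM1 lies highest at 3.18 and NRP2 lowest at 0.457 among the genes named here as tip cell, arterial and venous genes.

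Genes whose log2(CPM + 10) over the 19 clusters was most like that of each member were found among 12188 genes. The correlations describe clusters of the same libraries and carry no test. GLI1, a transcription factor and target of hedgehog signaling, was most like PDGFRA (Pearson r = 0.987), followed by GPC3, LUM, SCN2A and FAP, all with r of at least 0.964. PDGFB was most like MGLL (0.941), CD93, C1orf54, ADORA2A and C2CD4B, which were all highest in the endothelial-like cluster. PDGFRB was most like ENSMFAG00000003132 (0.955), MYH11, HEYL, RASL11A and CCN4, all highest in the pericyte-like cluster.

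PDGFD was most like MSI2 (0.914), CERS6, MYL7, HS3ST3A1 and RSPO1, and PDGFC most like F3 (0.887), AMIGO2, SLC2A11, SEMA4B and ENSMFAG00000040743. All but RSPO1, which was highest in surface epithelium-like cells, were highest in a granulosa-like cluster. PDGFA, with its few UMIs, reached 0.799 at most, with SLC4A4, which was highest in the surface epithelium-like cluster. Between members, PDGFC and PDGFD had r = 0.306, and PDGFB and PDGFRB r = 0.087.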

How the data were processed

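The values are unnormalized UMI counts of genes in single cells, as deposited. Cell Ranger 3.0.2 was run by the authors on reads of 3′ libraries against the genome Macaca_fascicularis_5.0, and the count matrix was read into Seurat. It holds no gene in fewer than 3 cells and still contains 4675 cells over 3000 genes. The samples were 1 library each at E84 and E116.

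Cells with 200 to 3000 genes were clustered with Seurat 5.3.0 under R 4.3.3, using 2000 variable genes without the members and listed genes, 18 principal components, 20 neighbours and resolution 0.6. A class name needed 3 markers at least 1.5-fold above the other cells and in 5% of cells, more markers than any other class had (at a tie, as for macrophage and lymphocyte markers, the class with more of the 10 leading genes), and no other class with at least 2 and more of these leading genes. Scrublet (scanpy 1.11.5) called 0 doublets in 20967 cells, so it was taken as not having worked, and no doublets were removed. In their place the highest 8% of its scores were removed as an alternative. CPM of summed UMIs, exact intervals (Poisson for levels, Clopper-Pearson for shares, a binomial split for ratios) and a limit of 3 counts for a count of 0 were computed in Python 3.11.15 with scipy 1.17.1. Simulated counts checked the calculation of the ratio interval, which held the true value for 95.5% of 2806 genes for endothelial-like over pericyte-like cells. They were drawn from the Poisson model that the interval assumes, without spread between cells, so they cannot show how it holds in these data.

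Named genes were the 6 members, short lists of related genes and the 5 genes most like each member. The members and lists were chosen with earlier results of these data known. The alternatives were the other filters, resolutions, thinning and barcode endings. No sequence or coordinate is given, since no sequence of the assembly Macaca_fascicularis_5.0 was available here.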

Additional observations from a re-analysis of the deposited data

Results flagged for a closer look

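PDGFRB in endothelial-like cells over the limit of 3000 genes was singled out because it is a signal in cells that the comparisons above leave out. When the cells were clustered without the limit, 204 endothelial-like cells lay over it and had 135.5 CPM of PDGFRB (124.5 to 147.2), against 17.4 CPM in the 341 endothelial-like cells below it. PDGFB was 107.9 CPM over the limit and 109.7 CPM below it. Summed pericyte markers were 1217 CPM over the limit and 364.7 CPM below it, and stroma markers 3096 and 1247 CPM. Of the 204 cells, 43 had 5 or more PDGFRB UMIs and held 77.9% of the PDGFRB UMIs. Their median depth was 30588 UMIs, against 14387 UMIs in the 109 cells with none, and RGS5 was 1098 CPM in them and 76.8 CPM in the latter. The summed endothelial markers were 3143 and 4271 CPM. The highest 8% of Scrublet scores held 7 of these 43 cells (16.3%), 17 of the 52 with 1 to 4 PDGFRB UMIs (32.7%), 10 of the 109 with none (9.17%) and 55 of the 341 below the limit (16.1%). Whether these are 2 cells in 1 droplet was not tested.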

How the results depend on the processing

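The log2 ratio between the 2 highest of the 5 classes was recomputed for each member, in 60 values over all alternatives. Of these, 58 kept the direction and 54 lay within the 95% interval of the value reported. For PDGFA that interval was -2.55 to 4.15, so lying within it says little. Without the limit of 3000 genes, a cluster of 862 cells led by CBLN2 and LYPD1 was left unnamed, so the granulosa-like values there lack it. The values without the shallow or the mitochondria-rich granulosa-like cluster, or without pericyte-like cells holding an endothelial marker UMI, were added after seeing the data. The PDGFC ratio (granulosa-like over stroma-like, 1.94) was -0.09 in barcodes ending in 1 alone, 3.26 in those ending in 2 alone and 0.45 without cells over 10% mitochondrial UMIs. The PDGFD ratio (granulosa-like over endothelial-like, 1.51) was -0.15 in barcodes ending in 2 alone. The PDGFB ratio (endothelial-like over pericyte-like, 2.05) was 3.69 at 1000 UMIs per cell, with 1 UMI left in pericyte-like cells, and the PDGFRB ratio (pericyte-like over stroma-like, 2.04) was 2.35 in barcodes ending in 1 alone, with 14 UMIs in 10 pericyte-like cells. The cause was not tested. The PDGFA ratio (pericyte-like over endothelial-like, 1.03) ranged from 0.23 to 2.96, and the PDGFRA ratio (stroma-like over pericyte-like, 4.15) from 3.67 to 5.72. The PDGFA value of 2.96 (1.35 to 4.57) was that without the limit of 3000 genes. For want of UMIs in pericyte-like cells, no value was possible for PDGFRA at 1000 UMIs per cell. The same held for PDGFA, PDGFB and PDGFRA in barcodes ending in 1 alone. For PDGFA at 1000 UMIs per cell no value was possible for want of UMIs in endothelial-like cells. Depth limits PDGFA most, with 98 UMIs, and every pericyte-like value of a gene under 7.17 CPM. No paired analysis was possible because the table does not tie cells to the libraries and each stage has 1 library.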
